A study of Mus musculus with 18 samples.

Results

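Chrm3, Amotl2 and Muc1 are 3 of the 24421 gene symbols counted in sorted hematopoietic stem cells (HSCs) of mouse bone marrow, and all 3 were among the 12808 genes with enough counts to be tested. They were selected on their counts in young mice, where each separated LT-HSCs from ST-HSCs, so that difference is described below without a test. The questions were whether the difference also holds in mice of 23 to 25 months and where the unseparated bulk-HSCs lie. RNA was sequenced in 18 libraries, 3 for each of 3 sorted fractions (LT-HSCs, ST-HSCs, bulk-HSCs) at each of 2 ages. All animals were Hoxb5-tri-mCherry mice on the C57BL/6J background, in which the fluorescent protein mCherry reports the activity of the endogenous Hoxb5 gene. The young animals were aged 2 to 3 months and the aged ones 23 to 25 months. Bulk-HSCs were all cells within the phenotypic HSC gate of c-Kit-enriched marrow, LT-HSCs (long-term HSCs) were the reporter-positive cells of that gate and ST-HSCs (short-term HSCs) the reporter-negative ones. The same reporter therefore defines the fractions at both ages. The labels name no treatment of the mice or cells. The sources used here do not say which animals stand behind each library, so the p-values measure the spread between these libraries, which may be partly technical.

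The 3 genes belong to different protein families. Chrm3 encodes the muscarinic acetylcholine receptor M3, a receptor of the cell surface that couples to Gq proteins and, through phospholipase C, releases calcium inside the cell. Amotl2 encodes angiomotin-like 2, a scaffold protein of cell junctions and the actin cytoskeleton that binds the co-activator YAP and holds it back from the nucleus, and it is itself a known target gene of YAP. Muc1 encodes a transmembrane mucin, a heavily O-glycosylated protein found mainly on epithelial surfaces whose short cytoplasmic tail binds signalling proteins. LT-HSCs can rebuild the blood for the life of a recipient, whereas ST-HSCs do so for a limited time.

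In the GENCODE M21 annotation of mm10, Chrm3 lies on the minus strand of chromosome 13 from 9875486 to 10360847, Amotl2 on the plus strand of chromosome 9 from 102716672 to 102733418, and Muc1 on the plus strand of chromosome 3 from 89229057 to 89233381. Their exons cover 6253, 6289 and 2346 bases. Chrm3 spans 485362 bases and overlaps 6 other annotated genes, among them the antisense gene Gm26861, none of which was counted on its own. Whether reads were counted by strand is not given in the sources used here, so reads of an antisense transcript cannot be told apart from those of Chrm3. Amotl2 and Muc1 overlap no other annotated gene. The nearest gene to Muc1 is Trim46, on the opposite strand 796 bases beyond its 3′ end, with a median of 237 counts over the 18 libraries against 87 for Muc1. The neighbours Gm5627 of Amotl2 and Mir92b of Muc1 had 0 counts in all 18 libraries.

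Short sequence motifs known for blood or growth-control transcription factors were looked for on both strands between 250 bases before and 50 bases after the RefSeq start of each gene (GRCm38.p6). The TEAD motif GGAATG, bound by the partners of YAP, was present once in the Amotl2 window and once in the Muc1 window and was not found in the Chrm3 window, and 14.7% of 32851 promoter windows held it. The RUNX motif TGTGGT occurred once, in Amotl2, and in 16.8% of all windows. The SP1 motif GGGCGG occurred once in Amotl2 and 2 times in Muc1, and in 35.7% of all windows. The general E-box CANNTG was found once for Chrm3 and 3 times for Muc1, which is common, at 72.3% of windows. TATAAA was found in Muc1 alone among the 3 genes and in 13.6% of windows. Neither the GATA motif AGATAA (11.2% of windows) nor the ETS motif CCGGAA (14.9%) was found in any of the 3. No matches of different motifs overlapped in the sites printed here. These matches describe letters in the windows and not bound sites. The sites below are shown because Amotl2 and Muc1 held most of the matches, of which TEAD and SP1 occurred in both windows, RUNX in Amotl2 only and TATAAA in Muc1 only. They are printed with the matched motif in capitals and read 5′ to 3′ on the plus strand.
Amotl2 TEAD, chr9:102717729-102717754: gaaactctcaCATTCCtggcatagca
Amotl2 RUNX, chr9:102717688-102717713: agaggttattTGTGGTtcgctttgat
Amotl2 SP1, chr9:102717665-102717690: gagcggaggaGGGCGGcgcgctgaga
Muc1 TEAD, chr3:89228914-89228939: accctacacaGGAATGactggggggg
Muc1 TATA box, chr3:89229015-89229040: gggggactggTATAAAgcagcaggca

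The Amotl2 TEAD match is the reverse complement of the motif, and all 3 Amotl2 sites lie before the RefSeq start and within an exon of other GENCODE transcripts of the gene. The whole stretch of 250 bases before the RefSeq start of Muc1 is given because it holds the densest set of matches, with the TEAD, SP1 and TATA matches in capitals.
Muc1 promoter, chr3:89228806-89229055, plus strand: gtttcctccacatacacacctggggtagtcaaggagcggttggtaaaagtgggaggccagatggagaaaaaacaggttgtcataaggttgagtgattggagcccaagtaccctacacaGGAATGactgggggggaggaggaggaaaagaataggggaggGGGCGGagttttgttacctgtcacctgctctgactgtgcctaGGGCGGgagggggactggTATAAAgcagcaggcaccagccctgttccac

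Between 16495048 and 22973844 counts were assigned to genes in a library, and values are given as CPM, the read counts scaled to a common library size with TMM factors. Hoxb5, the gene that defines the sort, had a mean of 19.1 CPM in young LT-HSCs against 2.08 in young ST-HSCs and of 23 against 2.21 in the aged fractions, with every LT-HSC library above every ST-HSC library at both ages. All 11 listed genes of HSC identity were detected in every group. Among the 9653 genes whose median count reached 200, an aged library had 2 to 6 at 0 and a young library 1 to 163. The highest of these numbers, 163 and 160, belonged to replicate 3 of young LT-HSCs and replicate 3 of young ST-HSCs, and the values of the young fractions are also given without them.

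Chrm3 was high in young LT-HSCs, nearly absent from young ST-HSCs, and highest in aged LT-HSCs. In young LT-HSCs its level was 8.88, 22.8 and 16.1 CPM in replicates 1, 2 and 3, from 163, 465 and 275 counts. The young ST-HSC libraries had 0, 0.634 and 0 CPM, all from 14 counts in replicate 2. In young bulk-HSCs the values were 1.73, 6.54 and 0 CPM. The young LT-HSC libraries therefore lay above all other young libraries, and the ST-HSC and bulk-HSC libraries overlapped. In aged mice the LT-HSC libraries had 44.8, 62.0 and 47.2 CPM. The aged ST-HSC libraries had 25.9, 28.3 and 22.1 CPM. The aged bulk-HSC libraries had 39.8, 41.5 and 59.7 CPM. Aged LT-HSCs and aged bulk-HSCs overlapped, and both lay wholly above aged ST-HSCs.

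Amotl2 was the most evenly measured of the 3 genes and was detected in all 18 libraries. Young LT-HSCs had 48.8, 36.8 and 39.8 CPM, against 3.12, 6.62 and 2.72 CPM in young ST-HSCs. Young bulk-HSCs lay between them, at 22, 6.72 and 15.5 CPM, with no overlap with either fraction. In aged mice LT-HSCs had 65.3, 75.5 and 75.2 CPM. Aged ST-HSCs had 33.3, 53.2 and 42.7 CPM and aged bulk-HSCs 55.5, 51.5 and 58.2 CPM. Every aged LT-HSC library was above every other library of the study, while aged bulk-HSCs overlapped with aged ST-HSCs.

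Muc1 was the lowest of the 3 genes in counts. Young LT-HSCs had 0.926, 3.87 and 1.99 CPM, from 17, 79 and 34 counts. All 3 young ST-HSC libraries had 0 counts, where 3 counts would be 0.136 to 0.170 CPM. Young bulk-HSCs had 0, 2.5 and 2.1 CPM and overlapped with both young fractions. Aged LT-HSCs had 14.8, 20.1 and 31.1 CPM. Aged ST-HSCs had 7.95, 4.87 and 12.8 CPM and aged bulk-HSCs 4.18, 6.94 and 4.64 CPM. The aged LT-HSC libraries lay above all others, and aged ST-HSCs and aged bulk-HSCs overlapped.

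**Figure D1:**
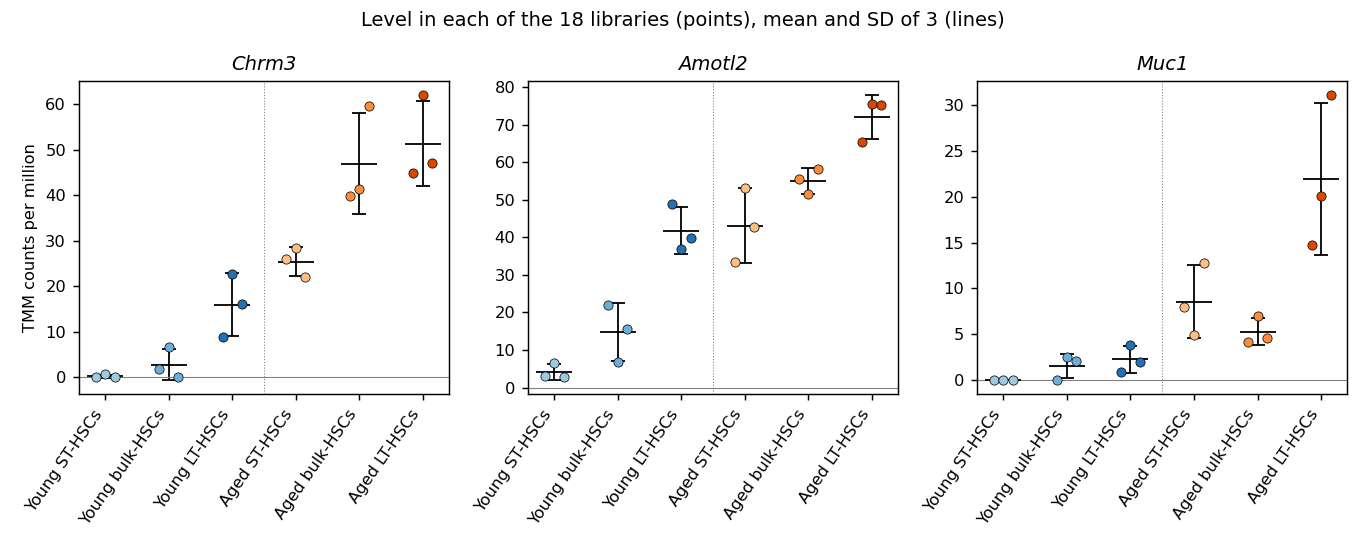
TMM-scaled CPM of Chrm3, Amotl2 and Muc1 (vertical axes, separate linear scales) in each of the 18 libraries, with young groups left of the dotted line. Points are libraries and lines the mean ± SD of 3. Aged LT-HSCs have the highest mean for each gene, 51.4 CPM for Chrm3, 72.0 for Amotl2 and 22 for Muc1.

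Ordered by their means, the 6 groups followed almost the same sequence for the 3 genes. For Chrm3 aged LT-HSCs (51.4 ± 9.31 CPM, SD, n = 3) were followed by aged bulk-HSCs (47.0 ± 11.1), aged ST-HSCs (25.4 ± 3.16), young LT-HSCs (15.9 ± 6.95), young bulk-HSCs (2.76 ± 3.39) and young ST-HSCs (0.211 ± 0.366). Neighbours in that order did not overlap between aged bulk-HSCs and aged ST-HSCs and between young LT-HSCs and young bulk-HSCs, and the other neighbours did. For Amotl2 the order was the same, from 72.0 ± 5.78 CPM (SD, n = 3) in aged LT-HSCs over 55.1 ± 3.40, 43.1 ± 9.95, 41.8 ± 6.25 and 14.7 ± 7.67 down to 4.15 ± 2.14 in young ST-HSCs. Aged ST-HSCs overlapped with both aged bulk-HSCs and young LT-HSCs, and the other neighbours did not overlap, although the lowest young bulk-HSC library (6.72 CPM) was close to the highest young ST-HSC library (6.62 CPM). For Muc1 aged ST-HSCs and aged bulk-HSCs changed places, with 22 ± 8.30 CPM (SD, n = 3) in aged LT-HSCs, 8.52 ± 3.97 in aged ST-HSCs, 5.25 ± 1.48 in aged bulk-HSCs, 2.26 ± 1.49 in young LT-HSCs, 1.53 ± 1.34 in young bulk-HSCs and 0 in young ST-HSCs. Overlap was found between aged ST-HSCs and aged bulk-HSCs, between young LT-HSCs and young bulk-HSCs and between young bulk-HSCs and young ST-HSCs. Levels of different genes can be set side by side per length of exon. In aged LT-HSCs the mean was 8.21 CPM per kilobase for Chrm3, 11.5 for Amotl2 and 9.36 for Muc1, and in young LT-HSCs it was 2.55, 6.65 and 0.964.

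The young difference between LT-HSCs and ST-HSCs, which chose the genes, was a ratio of means of 75.3 for Chrm3, with only 14 counts behind its ST-HSC mean, and of 10.1 for Amotl2. For Muc1, with no count in ST-HSCs, the ratio was 15.2 when each ST-HSC library is set to 3 counts. That setting allows for counting error only, so the ratio is not a lower bound. In edgeR's quasi-likelihood fit with Benjamini-Hochberg adjustment, 40 of the 12808 genes tested (0.312%) were higher in young LT-HSCs at an adjusted p under 0.05, and the 3 genes were among them by the way they were chosen. Without replicate 2 of young ST-HSCs, the one library there with Chrm3 counts, the fitted log2 fold change of Chrm3 moved from 6.12 to 11.31, and with both replicates 3 of the young LT-HSCs and ST-HSCs left out it was 5.60, beside 3.14 for Amotl2 and 8.62 for Muc1, the last set by the fit's prior because no ST-HSC library had a count. Counts of 0 were rare among genes with a median count over all 18 libraries like that of Chrm3, and more frequent near the median of Muc1. Of 4564 genes whose median count over the libraries was within 2-fold of the 455 of Chrm3, 8 (0.175%) had 0 counts in at least 2 young ST-HSC libraries. Of 1869 genes within 2-fold of the median of 87 of Muc1, 25 (1.34%) had 0 counts in all 3. In replicate 3 of young ST-HSCs, 37.2% of those 1869 genes had 0 counts, and in replicates 1 and 2 it was 11.3% and 6.47%. The medians include the aged libraries, while the young libraries had 0 to 465 counts for Chrm3 and 0 to 79 for Muc1. The young ST-HSC counts also chose the genes, so these shares are a description only.

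In aged mice the direction was the same for the 3 genes and the ratio much smaller. The mean was 2.02-fold higher in aged LT-HSCs than in aged ST-HSCs for Chrm3, 1.67-fold for Amotl2 and 2.58-fold for Muc1. In all 3 genes every aged LT-HSC library was above every aged ST-HSC library, which also held for 1111 of the 12808 genes tested (8.67%). None of the 3 passed the test across all genes. The log2 fold change of aged LT-HSCs over aged ST-HSCs was 1.01 for Chrm3 (standard error 0.89, 95% interval -0.85 to 2.88, adjusted p = 1 in the quasi-likelihood fit), 0.74 for Amotl2 (standard error 0.36, interval -0.01 to 1.49, adjusted p = 1) and 1.37 for Muc1 (standard error 1.08, interval -0.93 to 3.66, adjusted p = 1). The two-sided exact permutation test gave p = 0.1 for each, the smallest that 3 libraries against 3 can give. One gene in all (0.00781%) was higher in aged LT-HSCs at an adjusted p under 0.05, and 437 genes had an unadjusted p under 0.05. It was Vwf, the von Willebrand factor gene known as a marker of platelet-biased HSCs, named here after its values were seen. Vwf had 859 against 304 CPM (log2 fold change 1.5, standard error 0.20, adjusted p = 0.0105 in the same fit). Its call was lost when replicate 3 of aged LT-HSCs or replicate 1 or 2 of aged ST-HSCs was left out, where 0 genes passed.

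The error of the aged comparison depended on which libraries shared the estimate of the spread. Fitted on the 9 aged libraries alone, an alternative added after the data were seen, the log2 fold changes were 1.0 for Chrm3, 0.73 for Amotl2 and 1.35 for Muc1, and their standard errors fell to 0.21, 0.17 and 0.42. The adjusted p-values of edgeR's test were then 0.0908, 0.141 and 0.279, and 18 genes passed in place of 1. With DESeq2 55 genes passed. On counts simulated from edgeR's own estimates of the spread, edgeR called 112 of 200 genes changed 4-fold and 5 unchanged ones. DESeq2 called 127 and 64. The simulated counts held no other differences between groups, so they cannot say which of the 55 genes differ. Across 15 alternatives in all, including each library left out, none of the 3 genes passed, and the log2 fold changes stayed between 0.85 and 1.10 for Chrm3, 0.59 and 0.92 for Amotl2, and 1.03 and 1.78 for Muc1. In CPM rather than as a ratio, the LT-HSC mean exceeded the ST-HSC mean by 15.7 in young and 25.9 in aged mice for Chrm3, by 37.7 and 28.9 for Amotl2, and by 2.26 and 13.4 for Muc1. The ratio was thus nearer to 1 in aged mice for the 3 genes, while the distance in CPM was larger in aged mice for Chrm3 and Muc1 and smaller for Amotl2. The difference between the ages was not tested, since the young values chose the genes.

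The other genes chosen by the same young comparison give a frame for these values. Of the 37 other genes that passed as higher in young LT-HSCs, 35 had a positive log2 fold change in aged LT-HSCs over aged ST-HSCs, against 51.6% of all tested genes. In 28 of the 37 (75.7%) every aged LT-HSC library was above every aged ST-HSC library. Their median log2 fold change was 1.53 in young and 0.58 in aged mice, so a smaller aged value was the usual case in genes picked on the young libraries. Of the 15 genes that passed as higher in young ST-HSCs, 13 also had a negative aged value.

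**Figure D2:**
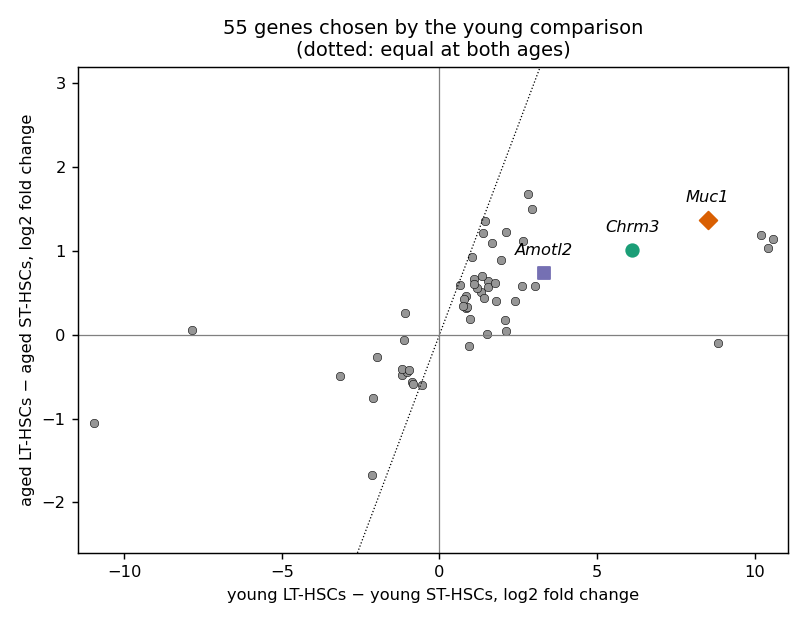
Log2 fold change between LT-HSCs and ST-HSCs in young mice (horizontal axis) and in aged mice (vertical axis, shorter scale) for the 55 genes that passed the young comparison, with the 3 described genes in colour and equal values on the dotted line. Chrm3, Amotl2 and Muc1 lie at young values of 6.12, 3.32 and 8.51 and aged values of 1.01, 0.74 and 1.37; values near 10 on the horizontal axis come from groups at or near 0 counts, as for Muc1, and are not bounds.

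Marker genes of other cells were summed in each library beside this comparison. The summed level of the 10 endothelial markers was 1186 to 1581 CPM in aged LT-HSCs and 704 to 738 in aged ST-HSCs, with Vwf the most abundant of them and Cdh5, the defining cadherin, at 0 in both groups. The 8 megakaryocyte markers, also led by Vwf in LT-HSCs, summed to 1254 to 1740 CPM in aged LT-HSCs and 899 to 1013 in aged ST-HSCs, with Gp6 at 0. Of the 7 tested megakaryocyte markers 2 were higher in aged LT-HSCs, Vwf (859 against 304 CPM) among them. The median log2 fold change of that list was -0.07. The T and NK cell markers, of which 7 of 8 were in the table, summed to 61.4 to 138 CPM against 22.7 to 45.4, mostly from Klrb1c, with Cd3e, Cd3g, Cd8a and Ncr1 at 0. Of the 3 tested T and NK cell markers 1 was higher in aged LT-HSCs, and their median log2 fold change was -0.86. The sum of the 4 multipotent progenitor markers was higher in ST-HSCs, at 139 to 159 CPM in aged LT-HSCs and 252 to 258 in aged ST-HSCs. The B cell markers were also higher in ST-HSCs, at 12.9 to 15.4 CPM in aged LT-HSCs and 16 to 26.1 in aged ST-HSCs, nearly all from Cd79b, with Pax5, Ebf1 and Ms4a1 among those at 0. Overlapping sums were found for neutrophil markers (142 to 182 CPM in aged LT-HSCs and 146 to 170 in aged ST-HSCs), stromal markers (17.2 to 33.3 and 31.0 to 39.4 CPM), erythroid markers (12.7 to 29.1 and 13.4 to 16.2 CPM) and HSC identity genes (3392 to 3817 and 3594 to 3862 CPM). The epithelial list, of interest for Muc1, ran from 158 to 184 CPM in aged LT-HSCs and 164 to 183 in aged ST-HSCs, mostly Krt18, with Cdh1 and Krt19 at 0. The part of these markers in the result was not tested.

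Bulk-HSCs hold both fractions, and in such a mixed sample fewer cells of a type and less RNA per cell cannot be told apart. In young mice the bulk-HSC mean lay nearer to ST-HSCs than to LT-HSCs for Chrm3, at 16.2% of the way from the ST-HSC to the LT-HSC mean in CPM, and for Amotl2, at 28.1%. For Muc1 it was at 67.8%, on values of 0 to 2.5 CPM. In aged mice the bulk-HSC mean was at 83.2% of that way for Chrm3 and 41.4% for Amotl2. For Muc1 it lay below the means of both aged fractions (5.25 CPM against 8.52 in ST-HSCs and 22 in LT-HSCs). The percentages therefore give the place of a mean in CPM and are not shares of cells.

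Against aged bulk-HSCs, none of the 3 genes passed the test in either aged fraction. Aged LT-HSCs differed from aged bulk-HSCs by a log2 fold change of 0.13 for Chrm3 (standard error 0.88, 95% interval -1.72 to 1.97), 0.39 for Amotl2 (standard error 0.35, interval -0.36 to 1.13) and 2.06 for Muc1 (standard error 1.11, interval -0.29 to 4.41), each with an adjusted p of 1 in edgeR's fit. Without replicate 2 of aged LT-HSCs the value of Chrm3 changed sign, to -0.03. Amotl2 and Muc1 had every aged LT-HSC library above every aged bulk-HSC library, as did 993 of the 12808 genes (7.75%), and for Muc1 the ratio of means was 4.18. In this comparison 0 genes (0%) passed with edgeR, 421 had an unadjusted p under 0.05 and 32 passed with DESeq2. Aged ST-HSCs differed from aged bulk-HSCs by -0.88 for Chrm3 (standard error 0.88, interval -2.75 to 0.98), -0.35 for Amotl2 (standard error 0.35, interval -1.10 to 0.39) and 0.70 for Muc1 (standard error 1.07, interval -1.58 to 2.97), again with an adjusted p of 1 for each from edgeR's test. Chrm3 had every aged ST-HSC library below every aged bulk-HSC library, as did 962 genes (7.51%). Here too 0 genes (0%) passed with edgeR, with 346 at an unadjusted p under 0.05 and 41 with DESeq2. These 2 comparisons and the aged comparison of LT-HSCs with ST-HSCs share libraries.

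Between the ages, bulk-HSCs give a comparison that the choice of genes did not use. Of the 9653 genes whose median count reached 200, the young bulk-HSC libraries had 61, 29 and 67 at 0. The aged ones had 5, 2 and 3, and the part of these zeros in the result was not tested. Chrm3 rose from a mean of 2.76 CPM in young to 47.0 CPM in aged bulk-HSCs, and the log2 fold change, 4.08 with a standard error of 1.0, passed edgeR's test (adjusted p = 0.0428). Amotl2 rose from 14.7 to 55.1 CPM, and the log2 fold change was 1.90 (standard error 0.37), which also passed (adjusted p = 0.0101). Muc1 had 1.53 and 5.25 CPM, a log2 fold change of 1.77 that did not pass (standard error 1.10, 95% interval -0.57 to 4.11, adjusted p = 0.573 from edgeR's test). All 3 genes had every aged library above every young library (p = 0.1 for each in a two-sided exact permutation test, which cannot give less here), as did 1719 of the 12808 genes (13.4%). With higher values in aged bulk-HSCs 196 genes (1.53%) passed the test. The call of Chrm3 was close to the threshold. It was lost in the fit of bulk-HSCs alone (adjusted p = 0.164 from edgeR's test) and when replicate 1 of young bulk-HSCs or any 1 of the 3 aged bulk-HSC libraries was left out (adjusted p = 0.0905 to 0.127). Amotl2 lost its call in the fit of bulk-HSCs alone (adjusted p = 0.0778) and kept it with each library left out.

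**Figure D3:**
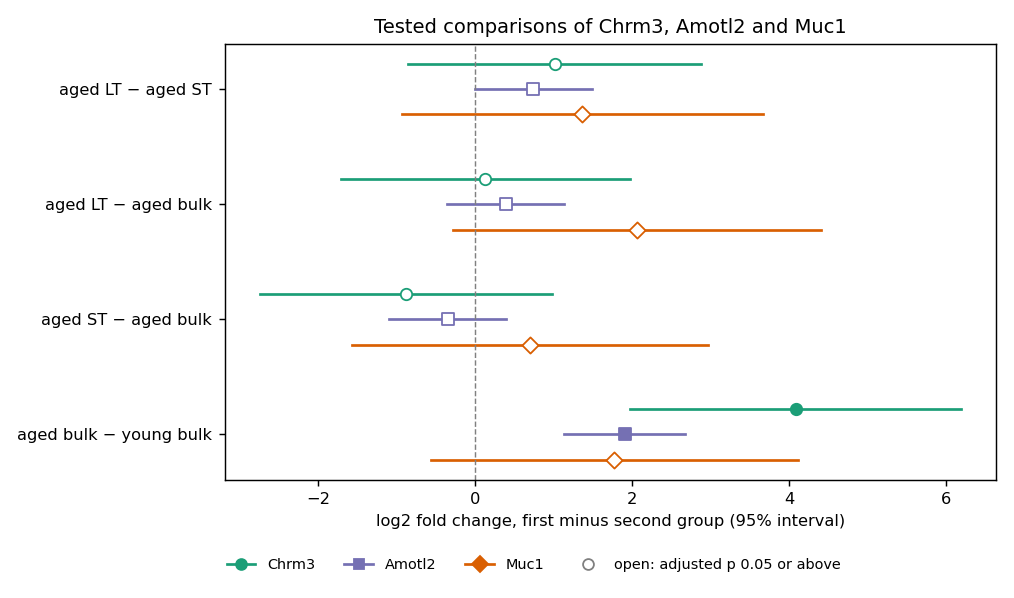
Log2 fold change (horizontal axis, first minus second group) with its 95% interval for the 3 genes in the 4 tested comparisons, from the edgeR fit of all 18 libraries. Filled symbols passed at an adjusted p under 0.05; these are Chrm3 (4.08) and Amotl2 (1.90) in aged against young bulk-HSCs.

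The same marker lists differed between the ages of bulk-HSCs. Endothelial markers summed to 612 to 787 CPM in young and 1076 to 1156 in aged bulk-HSCs, with Cdh5 and Flt1 at 0 in both. Megakaryocyte markers summed to 920 to 1143 and 1342 to 1379 CPM. Vwf, which is on both lists, rose from a mean of 310 to 656 CPM. Of the tested markers, 4 of 7 on the megakaryocyte list and 6 of 7 on the endothelial list had a positive log2 fold change. The list medians were 0.13 and 0.37. Epithelial markers summed to 81.9 to 119 and 149 to 195 CPM, with Cdh1 and Krt19 at 0 throughout. The neutrophil markers, 9 of 10 in the table, summed to 46.0 to 64.8 and 123 to 127 CPM, nearly all from Prtn3, with Mpo, Ctsg and Ltf among those at 0. Of the 2 tested neutrophil markers 1 was higher in aged bulk-HSCs, Prtn3. The T and NK cell markers summed to 6.44 to 20.6 and 52.6 to 65.5 CPM. Stromal markers (7.19 to 32.6 and 13.4 to 34.6 CPM), erythroid markers (13.7 to 33.2 and 26 to 57.8 CPM), B cell markers (10.6 to 29.2 and 14.9 to 25.4 CPM) and HSC identity genes (3645 to 4136 and 3773 to 3965 CPM) overlapped between the ages, and the multipotent progenitor markers were lower in aged libraries (168 to 213 CPM) than in young ones (222 to 298 CPM). The part of these markers in the result was not tested.

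Within the sorted fractions the age difference is given as values only, since the young libraries chose the genes. In LT-HSCs the aged mean was 3.23-fold the young mean for Chrm3, 1.72-fold for Amotl2 and 9.71-fold for Muc1. In each of the 3 genes the aged LT-HSC libraries lay above the young ones, as did those of 1310 of the 12808 genes (10.2%). Without replicate 3 of young LT-HSCs the ratios were 3.25, 1.68 and 9.16. In ST-HSCs the aged mean was 10.4-fold the young mean for Amotl2, and for Chrm3 it was 25.4 against 0.211 CPM. Without replicate 3 of young ST-HSCs the ratio was 8.85 for Amotl2, and the young mean of Chrm3 was 0.317 CPM. For Muc1 the aged mean was 57.1-fold the young one with each young ST-HSC library set to 3 counts. That setting allows for counting error only, so the ratio is not a lower bound. Aged ST-HSCs reached the level of young LT-HSCs. Their libraries overlapped for Chrm3 (22.1 to 28.3 CPM in aged ST-HSCs and 8.88 to 22.8 in young LT-HSCs) and for Amotl2 (33.3 to 53.2 and 36.8 to 48.8 CPM), while for Muc1 aged ST-HSCs had 4.87 to 12.8 CPM and young LT-HSCs 0.926 to 3.87 CPM.

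Relatives and partners of the 3 proteins were followed through 12 lists of 120 genes, of which 86 passed the filter on low counts. Apart from the 3 genes themselves, 0 of the other 83 passed edgeR's test in the aged comparison of LT-HSCs with ST-HSCs, in either direction, and 10 had an unadjusted p under 0.05. Their median log2 fold change was 0.11 beside 0.01 for all tested genes. Against aged bulk-HSCs, 0 of the 83 passed in LT-HSCs (5 at an unadjusted p under 0.05) and 0 in ST-HSCs (6 at an unadjusted p under 0.05). Between aged and young bulk-HSCs 4 of the 83 rose and 1 fell, beside 1.98% of all genes tested, and 20 had an unadjusted p under 0.05. Among all 12808 tested genes, 437, 421, 346 and 1698 had an unadjusted p under 0.05 in these 4 comparisons, in the order given. Whether the lists differ from all genes was not tested.

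Of the muscarinic receptors, Chrm3 had the highest mean per kilobase of exon over the 18 libraries. In young ST-HSCs alone Chrm1 was higher, with a mean of 1.96 CPM against 0.211 for Chrm3 over exons of 6487 and 6253 bases. Chrm1, which encodes the M1 receptor, had counts in 13 of 18 libraries and between 0 and 7.79 CPM. Its mean was also higher in LT-HSCs than in ST-HSCs, at 5.71 against 1.96 CPM in young and 1.67 against 0.0903 in aged mice. The aged log2 fold change of Chrm1 was 4.11 (standard error 2.28), on few counts, and did not pass. Per kilobase of exon its mean over the libraries was 0.309 CPM against 3.80 for Chrm3. Chrm4 had counts in 1 library, and Chrm2 and Chrm5 had none. Of the 16 tested genes of the Gq pathway through which the M3 receptor signals, 0 passed in any of the 4 comparisons. Their median log2 fold change was 0.09 in aged LT-HSCs over aged ST-HSCs and 0.20 in aged over young bulk-HSCs, beside 0.01 and 0.03 for all tested genes. Of the genes that make, load or recover acetylcholine, Chat, Slc18a3 and Slc5a7 had 0 counts in all 18 libraries. Ache, which encodes acetylcholinesterase, had between 0 and 8.89 CPM and did not pass in any comparison.

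The angiomotin family differed in pattern. Amot, encoding angiomotin, stayed between 21.3 and 36.7 CPM over all 18 libraries and had a log2 fold change of 0.03 between aged and young bulk-HSCs (standard error 0.25, adjusted p = 0.986 from edgeR's test), and Amotl1 had 0 counts in all libraries. Of 17 tested genes of the Hippo pathway, the kinase cascade that controls YAP, 0 passed in any of the 4 comparisons, with a median log2 fold change of 0.15 in aged LT-HSCs over aged ST-HSCs and 0.06 in aged over young bulk-HSCs. Of 10 tested target genes of YAP and its relative TAZ, 2 rose in aged bulk-HSCs, beside 1.53% of all tested genes. Amotl2 itself was 1 of these 2. The other was Myof, encoding the membrane repair protein myoferlin, from 195 to 330 CPM (log2 fold change 0.76, standard error 0.15, adjusted p = 0.0110 from edgeR's test). Over the 10 targets the median was 0.08.

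Of the 10 genes listed with the transmembrane mucins 6 were in the table. Muc13 was counted in every library at 194 to 545 CPM, far above Muc1 per kilobase of exon (127 CPM over the 18 libraries against 2.81), and it did not pass in any comparison. Mcam, which was on the list but encodes an adhesion protein and not a mucin, had counts in 2 libraries. Muc4, Muc15 and Muc20 had none. Of the secreted mucins Muc5b and Muc6 were tested and did not pass. Of 6 sialomucins and similar glycoproteins, Spn, which encodes leukosialin (CD43), rose in aged bulk-HSCs from 477 to 639 CPM (log2 fold change 0.42, standard error 0.10, adjusted p = 0.0388 from edgeR's test) and Cd34, an adhesion sialomucin used to sort stem and progenitor cells, fell from 153 to 73.3 CPM (log2 fold change -1.06, standard error 0.20, adjusted p = 0.00940). Of 13 tested enzymes of O-glycosylation, 1 rose. It was Galnt6, which starts O-glycan chains, from 78.9 to 232 CPM (log2 fold change 1.55, standard error 0.33, adjusted p = 0.0200 from edgeR's test). Of all tested genes 1.53% rose in aged bulk-HSCs and 1.98% passed in either direction. Of 7 tested proteins known to bind Muc1, 0 passed in any comparison, and their median was -0.07 in aged over young bulk-HSCs.

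The 3 genes were compared with each other and with all tested genes by the Pearson correlation of log2(CPM + 1) over the 18 libraries, which share the 6 group levels and are given as a description. Chrm3 and Amotl2 had r = 0.89 (Spearman 0.93), Chrm3 and Muc1 r = 0.83 (Spearman 0.85), and Amotl2 and Muc1 r = 0.77 (Spearman 0.80). Without the 2 young libraries with the most genes at 0, r was 0.86, 0.82 and 0.75. After the mean of each group was removed, r was -0.36, 0.17 and -0.53, so the likeness was one of group levels and not of the libraries within a group. Hoxb5 was less like them, at r = 0.50 with Chrm3, 0.64 with Amotl2 and 0.41 with Muc1.

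The 5 genes most like Chrm3 were Plk2, a kinase of the polo family (r = 0.96, Spearman 0.94), Clca3a1, of the chloride channel accessory family (r = 0.96, Spearman 0.91), Arhgap29, a GTPase activating protein (r = 0.96, Spearman 0.90), Selp, encoding the adhesion molecule P-selectin (r = 0.95, Spearman 0.93), and Mocos, encoding molybdenum cofactor sulfurase (r = 0.93, Spearman 0.92). Selp followed the same order of groups, from 10.6 CPM in young ST-HSCs over 18.6 in young bulk-HSCs and 86.3 in young LT-HSCs to 243 in aged ST-HSCs, 319 in aged bulk-HSCs and 363 in aged LT-HSCs. Among the 5 most like Amotl2 were Pgr, the progesterone receptor (r = 0.95, Spearman 0.95), Klhl4 (r = 0.95, Spearman 0.93), Procr, encoding the HSC surface receptor EPCR (r = 0.95, Spearman 0.88), and Evc2, a protein of the primary cilium (r = 0.92, Spearman 0.82). Procr varied less than Amotl2, from 89.3 CPM in young ST-HSCs to 151 in aged LT-HSCs. Most like Muc1 were Ubac2 (r = 0.93, Spearman 0.88), Trim47 (r = 0.90, Spearman 0.92), Ehd3, of the endocytic recycling machinery (r = 0.90, Spearman 0.91), Selp (r = 0.89, Spearman 0.91) and Mef2c, a transcription factor (r = 0.89, Spearman 0.90). Ranked by the Spearman correlation, 1 of the 5 for Chrm3, 2 for Amotl2 and 3 for Muc1 stayed among the 5 most like.

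**Figure D4:**
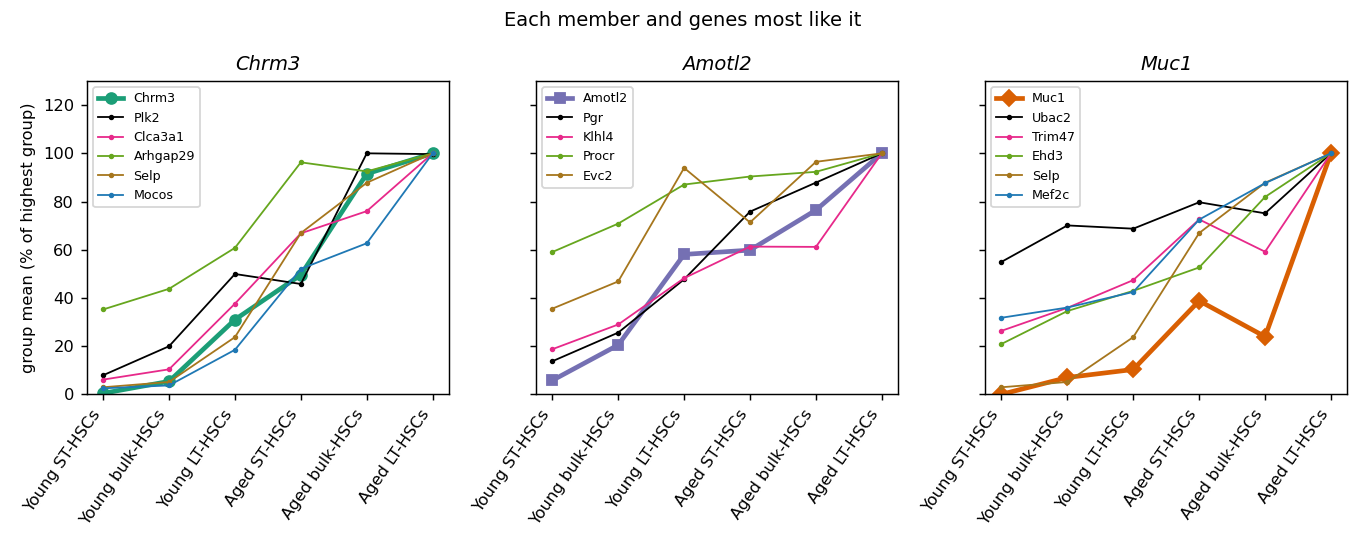
Group means of each described gene (thick line) and of genes among the 5 most like it by Pearson correlation over 18 libraries (thin lines; 5 for Chrm3 and Muc1, 4 for Amotl2), as a percentage of the gene's own highest group mean (vertical axis), for the 6 groups (horizontal axis). Each gene's lowest mean is in young ST-HSCs, and all but Plk2 peak in aged LT-HSCs, where Chrm3, Amotl2 and Muc1 had 51.4, 72.0 and 22 CPM.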

How the data were processed

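RNA of 6 groups of 3 libraries was sequenced from total RNA depleted of ribosomal RNA. Alignment to mm10 was done by the authors with HISAT2 and quantification with StringTie 1.3.4d, and the deposited values are unnormalized whole-number counts per gene symbol. How StringTie's output became counts, the annotation and the strand setting are not given in the sources used here. Groups came from the sample titles. Counts were scaled with TMM factors, and genes with a mean of at least 1 CPM over the libraries were tested by edgeR 4.0.16 (R 4.3.3, limma 3.58.1), in 1 quasi-likelihood model of the 6 group means with Benjamini-Hochberg adjustment over 12808 genes. The standard error is the log2 fold change over the square root of F. The test was checked on simulated counts, where DESeq2 called more unchanged genes than edgeR.

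The 3 genes and all lists were chosen with earlier results of these data known. From each list, genes that passed one of the 4 comparisons are named, up to 3 by smallest p, with relatives of the 3 genes that had any count and, for each of the 3, the 5 genes of highest Pearson correlation, apart from 2 genes not reported here. Depth was 16495048 to 22973844 counts, and 3 counts are 0.132 to 0.176 CPM, which covers counting error only, since reads carried no molecular identifiers. Alternatives were library size alone, RLE factors, other filters, DESeq2 1.42.0, fewer groups in the fit, a replicate block and each library left out. Coordinates came from GENCODE M21, promoter windows from RefSeq (3 of 3 genes matched), and figures from Python 3.11.15 with matplotlib 3.10.9.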

Additional observations from a re-analysis of the deposited data

How the results depend on the processing

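For the 3 genes, the direction and the side of the threshold held in the 4 tested comparisons under every alternative run, except for Chrm3 in aged LT-HSCs over aged bulk-HSCs without replicate 2 of aged LT-HSCs (log2 fold change -0.030, range -0.030 to 0.338 with each library left out) and for the calls in aged over young bulk-HSCs. There the fit of the 2 groups alone ended the calls of Chrm3 (4.08) and Amotl2 (1.91), and with each library left out Chrm3 ran from 3.50 to 5.79. The causes were not tested. In young LT-HSCs over ST-HSCs the value of Chrm3 moved to 7.11 with the replicate block within age and ran from 5.54 to 11.31 with each library left out.

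The number of genes that passed moved more. For aged LT-HSCs over aged ST-HSCs it was 1, and 2 without the filter, 55 with DESeq2, 3 with the 2 groups alone, 18 with the 9 aged libraries, 3 without the 2 young libraries with most genes at 0, and 0 to 2 with each library left out. For aged LT-HSCs over bulk-HSCs the corresponding numbers were 0 in the reported fit, 32 with DESeq2, 1 with the 2 groups, 2 with the aged libraries and 0 to 1. For aged ST-HSCs over bulk-HSCs they were 0, 41, 7, 7 and 0 to 1. For aged over young bulk-HSCs they were 253, 741 with DESeq2, 141 with the 2 groups, 493 without the 2 young libraries, and 115 to 240. For young LT-HSCs over ST-HSCs they were 55, 387, 5, 30, and 35 (without replicate 3 of young ST-HSCs) to 128 (without replicate 2 of young LT-HSCs).

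Libraries were treated as unpaired, since the deviations of equal replicate numbers from the group means had r between -0.04 and 0.12, not all over 0.1. Between LT-HSCs and ST-HSCs r was 0.02 to 0.12 in young and 0.05 to 0.09 in aged mice, and every library but 1 young ST-HSC library correlated best with its own number, which is a hint from the data and not from the design. It also held for young LT-HSCs with bulk-HSCs (0.02 to 0.04) and not for the other pairs of groups. With a replicate block within each age, 1, 0 and 0 genes passed in the tested comparisons of aged fractions and 40 in the young one. For aged over young bulk-HSCs the block was the replicate number across ages, which paired young with aged libraries. Equal numbers there had r between -0.007 and 0.007. With that block 238 genes passed, and Chrm3 and Amotl2 had log2 fold changes of 4.61 and 1.90. Muc1 rests on 0 to 79 counts in a young library, and the permutation test of 3 libraries against 3 cannot go below p = 0.1.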
